A study of Mus musculus with 6 samples.

Results

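Chromatin and DNA methylation regulators were examined as a group of 51 genes in mouse neural stem cell cultures. The group holds writers and erasers of DNA methylation, Polycomb subunits, the BAF remodelling complex, histone deacetylases, demethylases, methyltransferases and acetyltransferases, and CHD remodellers. A gene was taken up where a probe set of the array was annotated with that gene alone, and the probe set with the highest mean over all 6 arrays stood for it. This gave 50 measured members among 19938 genes, while Suv39h1 had no such probe set and is not analysed here. All cultures came from wild-type female C57BL/6 embryos at embryonic day 17.5 and grew in serum-free medium with FGF and EGF, each at 20 ng/ml. Arrays numbered 3 for the lateral ventricle's subventricular zone and 3 for the third ventricle, and the comparison asked how stem cells of these regions differ. The cells were expanded in culture as non-adherent dissociated cells, so their transcript levels are those of cultures and not of the tissue in place.

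DNA methylation in mammals is copied onto new DNA by Dnmt1 together with its recruiting factor Uhrf1, is set on unmethylated DNA by Dnmt3a and Dnmt3b, and is removed through oxidation by the Tet enzymes. Polycomb complexes silence genes of other lineages: PRC2 methylates lysine 27 of histone H3, and PRC1 binds that mark and ubiquitinates histone H2A. BAF complexes move nucleosomes with the ATPases Smarca4 or Smarca2, and neural progenitors use other subunits than neurons, such as Actl6a in place of Actl6b. In neural stem cells these systems are known for holding progenitor identity and for setting the timing of neuron and glia production.

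None of the 50 members passed a test between the regions with all arrays (limma, adjusted p below 0.05), against 0.231% of all genes (0.145% higher and 0.0853% lower in the third ventricle). At an unadjusted p below 0.05 there were 11 members, 6 of them higher and 5 lower on the side of the third ventricle, which is 22.0% of them against 12.6% of all genes. The median difference, the third ventricle minus the lateral ventricle, was 0.01 on the log2 scale over the members and -0.02 over all genes. Differences ran from -0.69 for Pcgf2 to 0.81 for Uhrf1, and 31 of the 50 lay within 0.2 of 0. The 3 arrays of the third ventricle lay wholly above the 3 lateral ones for Tet1, Hdac1, Hdac3 and Hdac9 and wholly below them for Ezh1, Smarca2 and Chd7. These 7 genes are 14.0% of the members, while 17.0% of all genes had groups without overlap (7.77% with the third ventricle above and 9.24% below), a share close to that of the members.

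**Figure D1:**
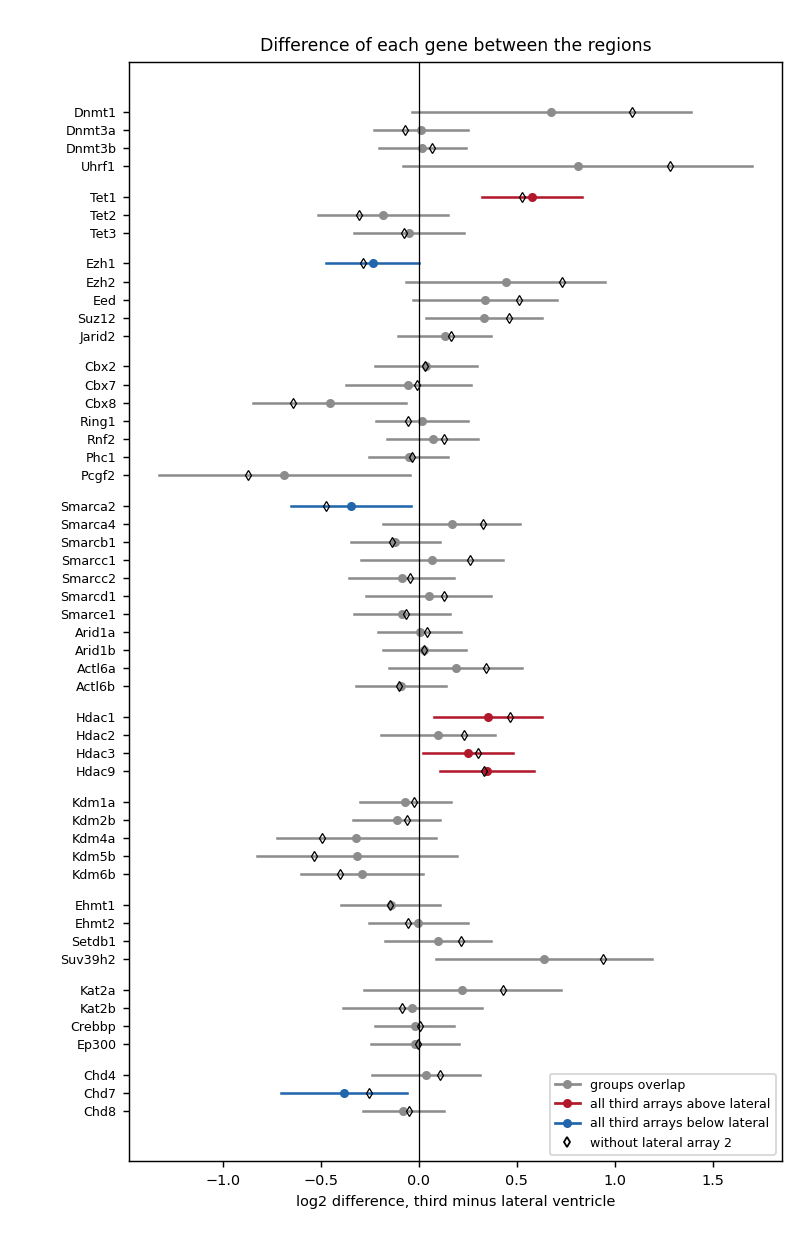
Difference of each of the 50 genes between the third ventricle and lateral ventricle cultures (x axis, log2 scale; 3 arrays a region), grouped by complex from DNA methylation at the top to CHD remodellers at the bottom. Filled points are the differences with 95% intervals over all arrays (grey where the groups overlap, red or blue where all arrays of the third ventricle lie above or below), and open diamonds are the differences without lateral ventricle array 2. Uhrf1, Dnmt1 and Suv39h2 have the largest positive differences, with wide intervals, and their diamonds lie further right.

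Lateral ventricle array 2 stood apart from the other lateral arrays. Across all genes its correlation was 0.991 to 0.992 with arrays of the third ventricle but 0.980 and 0.982 with lateral ventricle arrays 1 and 3. Of 23 measured proliferation genes, 23 lay nearer the third ventricle mean in that array than the mean of lateral ventricle arrays 1 and 3. Relative to each gene's mean, the median of these proliferation genes was -1.36 in lateral ventricle array 1, 0.57 in array 2 and -0.89 in array 3, while the third ventricle gave 0.55 to 0.61. Their mean level was 6.98 to 8.85 in the lateral arrays against 8.77 to 8.83 for the third ventricle, and 22 of the 23 lay above the background gauge in every array. That gauge is the 95th percentile of 1027 olfactory receptor genes, 5.03 to 5.16 in the 6 arrays. Of the 50 members 48 (96%) lay above it in every array, against 55.3% of all genes. The shares of members and of all genes set side by side, above and below, were not matched for this. Neural stem cell markers were above the gauge in all arrays for 10 of 11 genes, Sox2 at 9.40 to 9.96 and Nes at 6.47 to 7.70 among them. Nes, too, was low in lateral ventricle arrays 1 and 3. Its list did not share this, with 4 positive and 7 negative differences and a median of -0.04. Microglial markers were above it in every array for 0 of 8 genes, and vascular markers for 1 of 8. Of 8 oligodendrocyte lineage markers 7 were above it, with list means of 6.84 to 6.92 in the lateral arrays and 6.44 to 6.55 for the third ventricle. Among them Pdgfra was lower in the third ventricle, at -1.79 (limma, adjusted p = 0.00707). It was the only one of the list to pass. The list had 2 positive and 6 negative differences, with a median of -0.16, and Olig2 differed by 0.09. Astrocyte markers were above the gauge for 6 of 8 genes and ependymal ones for 4 of 5, and none of either list passed. The part of these cell types in the members' differences was not tested.

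Dnmt1 and Uhrf1, which maintain DNA methylation, had values that set lateral ventricle arrays 1 and 3 apart from the other 4 arrays. Dnmt1, the maintenance methyltransferase, had log2 values of 7.51, 8.89 and 7.79 in the lateral arrays and 8.69, 8.80 and 8.72 in the third ventricle arrays. Uhrf1, which recognises half-methylated DNA and recruits Dnmt1, had 6.82, 8.67 and 7.68 against 8.45, 8.57 and 8.58. For both genes lateral ventricle arrays 1 and 3 were low, and lateral ventricle array 2 lay above all arrays of the third ventricle. The differences were 0.68 (SE 0.31, limma adjusted p = 0.412) for Dnmt1 and 0.81 (SE 0.39, adjusted p = 0.429) for Uhrf1. Without lateral ventricle array 2 they were 1.09 (adjusted p = 0.00116) and 1.28 (adjusted p = 0.00998). From that array alone, without a lateral replicate to test it, the third ventricle mean differed by -0.15 for Dnmt1 and -0.13 for Uhrf1. The de novo enzymes Dnmt3a and Dnmt3b showed no such pattern. Dnmt3a lay between 7.11 and 7.37 and Dnmt3b between 5.15 and 5.38 in all 6 arrays, with differences of 0.01 (95% interval -0.23 to 0.25) and 0.02 (-0.20 to 0.24).

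Among the oxidising enzymes, Tet1 had the lowest p of all 50 members and did not follow lateral ventricle array 2. Its values were 8.48, 8.24 and 8.29 in the lateral and 9.01, 8.77 and 8.96 in the third ventricle arrays, and the lowest array of the third ventricle stood above the highest lateral one. The means were 8.34 ± 0.13 and 8.91 ± 0.13 (SD, n = 3), a 1.49-fold higher signal in the third ventricle cultures. The log2 difference of 0.58 (SE 0.11, 95% interval 0.32 to 0.83) did not pass after adjustment over all genes (limma, adjusted p = 0.120). Tet1 passed without lateral ventricle array 2, at 0.53 (adjusted p = 0.0315), and over the 13 alternatives of the fit its difference ran from 0.53 to 0.65 with adjusted p of 0.0315 to 0.476. It was the only one of the 10 members called in that fit for which array 2 lay nearer the lateral than the third ventricle side, with a difference of 0.68 from array 2 alone. The array carries 3 probe sets for Tet1. Each had the third ventricle arrays wholly above the lateral ones, with differences of 0.58, 0.52 and 0.50 and adjusted p of 0.131 to 0.198 over 21789 probe sets, of which 0.179% passed. The probe sets share the same RNA and are therefore not separate samples.

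Tet2 and Tet3 did not share that direction. Tet2 had 7.64, 7.12 and 7.36 in the lateral and 7.31, 7.05 and 7.21 in the third ventricle arrays, a difference of -0.18 (95% interval -0.51 to 0.15) with overlapping groups. Tet3 lay between 5.64 and 6.02 in all arrays and differed by -0.05 (-0.33 to 0.23). Its other probe set differed by 0.21 (-0.30 to 0.73) and dropped to 5.13, below the gauge, in lateral ventricle array 2.

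**Figure D2:**
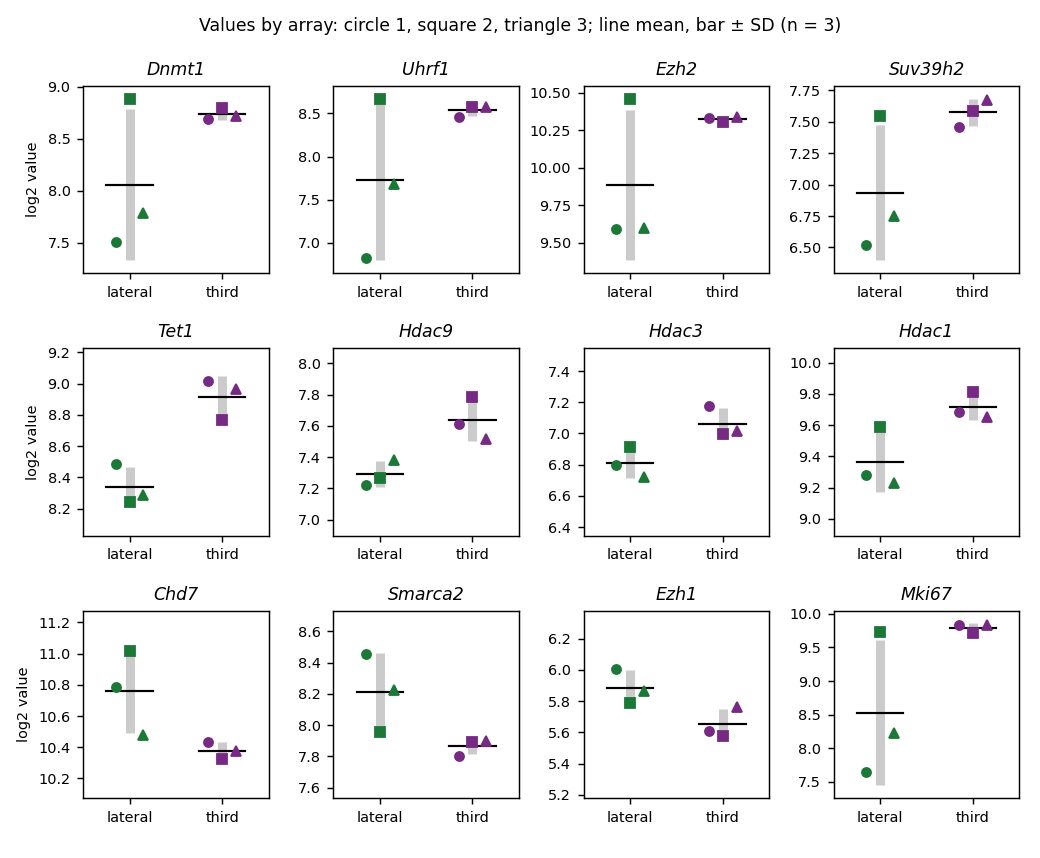
Log2 values (y axis, a different range in each panel) of 11 members and of the proliferation gene Mki67 in 3 arrays for the lateral and 3 for the third ventricle. Symbols give the replicate number, black lines the mean and grey bars the SD. In the top row and for Mki67 the square of lateral ventricle array 2 lies at the level of the third ventricle arrays, while for Tet1 and Hdac9 it lies with the other lateral arrays.

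Of the 5 PRC2 members 4 had a positive and 1 a negative difference, and 0 passed with all arrays. Ezh2, the main H3K27 methyltransferase of dividing cells, had 9.59, 10.46 and 9.60 in the lateral and 10.33, 10.31 and 10.34 in the third ventricle arrays. Eed, which binds the finished mark, had 7.88, 8.52 and 8.11 against 8.43, 8.59 and 8.51, and the zinc finger subunit Suz12 had 8.82, 9.24 and 8.91 against 9.36, 9.22 and 9.38. In all of these genes lateral ventricle array 2 reached the level of the third ventricle arrays, and the groups overlapped. The differences were 0.44, 0.34 and 0.33 (limma, adjusted p = 0.449, 0.423 and 0.358). Without lateral ventricle array 2 all of these genes passed as higher, by 0.73, 0.51 and 0.46 (adjusted p = 0.00247, 0.0288 and 0.0308). A second probe set of Eed stayed under the gauge throughout (3.42 to 3.62) and gives no level to compare. Ezh1, the other catalytic subunit, which is prominent in cells that no longer divide, was the member with the negative difference, and its contrast with the other subunits was not tested. It had 6.01, 5.79 and 5.86 in the lateral and 5.61, 5.58 and 5.76 in the third ventricle arrays, a difference of -0.24 (SE 0.10, adjusted p = 0.394) without overlap. Jarid2, which guides PRC2 to its targets, differed by 0.13 (95% interval -0.10 to 0.37).

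The PRC1 list had a median of -0.05 over 7 genes, 3 positive and 4 negative, against 0.33 over the 5 PRC2 genes, without a test of either. Pcgf2, also known as Mel18, had 6.78, 5.78 and 5.90 in the lateral and 5.81, 5.10 and 5.49 in the third ventricle arrays. Its difference of -0.69 (SE 0.28, adjusted p = 0.371) rested on its highest value, in lateral ventricle array 1, and was -0.37 without that array. Its value in array 2 of the third ventricle was just under that array's gauge of 5.11, so the size of the difference is less certain than for members above the gauge throughout. Cbx8, a subunit that reads the H3K27 mark, had 6.24, 5.82 and 6.51 against 5.84, 5.70 and 5.67. It differed by -0.45 (SE 0.17, adjusted p = 0.351) and passed as lower without lateral ventricle array 2 (-0.64, adjusted p = 0.0148). The ubiquitin ligases Ring1 and Rnf2 differed by 0.02 (95% interval -0.22 to 0.25) and 0.07 (-0.16 to 0.30), the latter from 7.89, 8.04 and 7.86 in the lateral to 8.11, 7.91 and 7.98 in the third ventricle arrays. Values of both groups overlapped, as they did for the other CBX subunits Cbx2 and Cbx7, which differed by 0.04 and -0.05. The scaffold subunit Phc1 lay between 7.07 and 7.23 in all arrays, with a difference of -0.05 (-0.25 to 0.15).

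**Figure D3:**
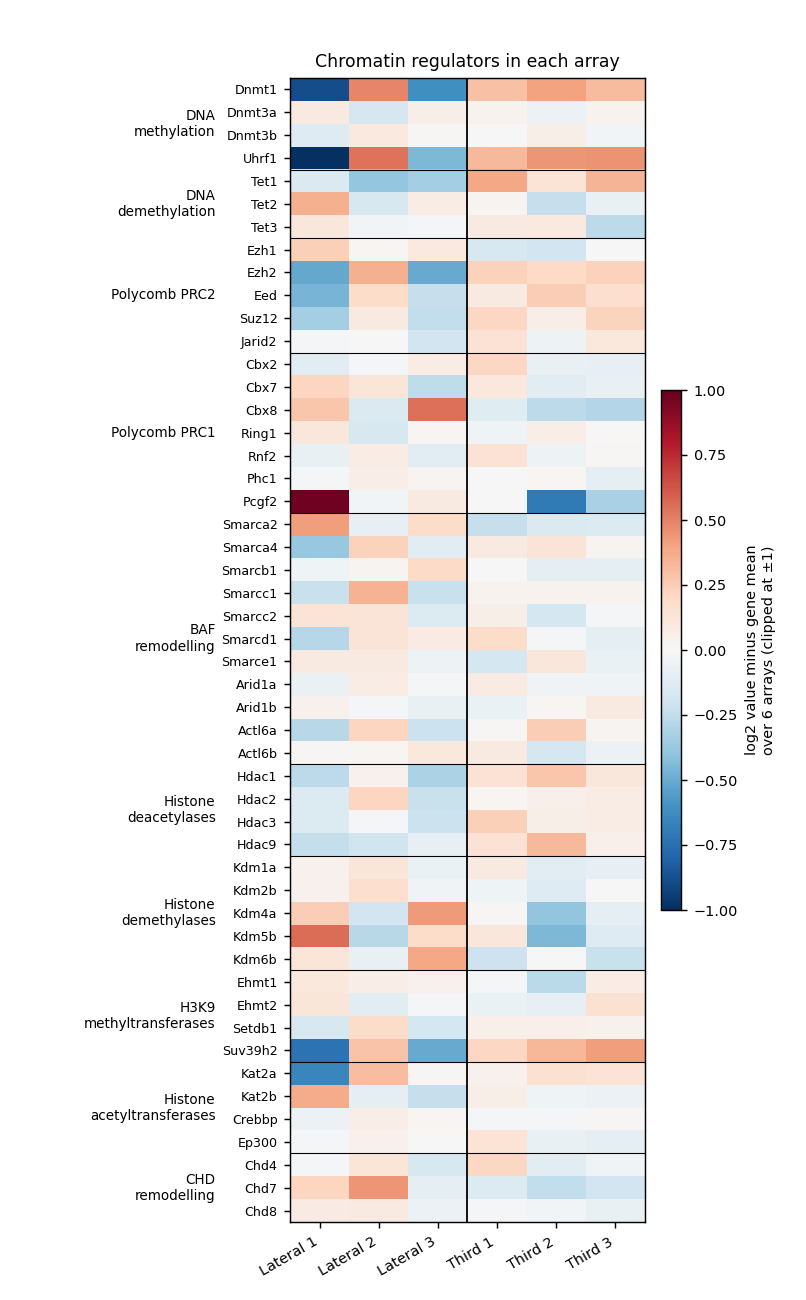
Log2 value of each of the 50 genes minus its mean over the 6 arrays (colour, clipped at 1 in both directions), with arrays in columns and genes in rows grouped by complex. Dnmt1, Uhrf1, Ezh2 and Suv39h2 are blue in lateral ventricle arrays 1 and 3 and red in lateral ventricle array 2 and all arrays of the third ventricle.

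BAF subunits had a median difference of 0.01, and 10 of the 11 lay within 0.2 of 0. The exception was Smarca2, the BRM ATPase, with 8.46, 7.96 and 8.22 in the lateral and 7.81, 7.89 and 7.90 in the third ventricle arrays. Its difference of -0.35 (SE 0.13, adjusted p = 0.356) came with groups that did not overlap, and without lateral ventricle array 2 it passed as lower (-0.47, adjusted p = 0.0350). The alternative ATPase Smarca4, or BRG1, had 8.09, 8.71 and 8.37 against 8.56, 8.60 and 8.50, a difference of 0.17 (95% interval -0.18 to 0.52). The core subunit Smarcc1 was at 9.14 in each array of the third ventricle and at 8.88, 9.45 and 8.88 in the lateral ones, so lateral ventricle array 2 was the highest of all 6. Its difference was 0.07 over all arrays and -0.03 without lateral ventricle array 1 or 3. Actl6a, the progenitor subunit, had 7.58, 8.07 and 7.65 against 7.88, 8.11 and 7.89. Actl6b, its neuronal counterpart, was under the gauge in each of the 6 arrays (4.72 to 4.99), so its level cannot be compared. Neuronal markers were nonetheless measured. Of 12, 8 were above the gauge in every array. Their list mean was 6.68 to 6.70 in the lateral arrays against 6.49 to 6.61 for the third ventricle, with 5 positive and 7 negative differences, 0 of which passed. Dcx had the largest, at -1.63 (limma, adjusted p = 0.136, and 0.00523 without lateral ventricle array 2), and Tubb3 differed by -0.60, while Gap43 and Elavl4, named after their values were seen, differed by 0.60 and 0.41. The remaining BAF members lay close to 0. Arid1a, the large DNA-binding subunit, differed by 0.01 (-0.21 to 0.22), Arid1b by 0.03 (-0.18 to 0.24) and the HMG-box subunit Smarce1 by -0.09 (-0.33 to 0.16). Smarce1 had 9.77, 9.77 and 9.62 in the lateral arrays and 9.502, 9.79 and 9.61 in those of the third ventricle. All 3 probe sets of Smarce1 lay between -0.12 and -0.09, but whether each reads the gene's own locus was not checked. Smarcb1, Smarcc2 and Smarcd1 differed by -0.12, -0.09 and 0.05.

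The 4 histone deacetylases among the members had positive differences, with a median of 0.30, and 0 of the 4 passed. The 15 other deacetylases and deacetylase partners measured did not share this, with 5 positive and 10 negative differences and a median of -0.06, beside 45.4% positive over all genes. Hdac1, a class I deacetylase of the Sin3 and NuRD complexes, had 9.28, 9.59 and 9.23 in the lateral and 9.68, 9.81 and 9.65 in the third ventricle arrays. It differed by 0.35 (SE 0.12, adjusted p = 0.329), and its other probe set by 0.35 as well, there with overlapping groups. Whether that other probe set reads the Hdac1 locus itself was not checked. Hdac1 passed as higher without lateral ventricle array 2 (0.46, adjusted p = 0.0277). Hdac3, the enzyme of the NCoR corepressor, had 6.80, 6.91 and 6.72 against 7.18, 6.995 and 7.01, a difference of 0.25 (SE 0.10, adjusted p = 0.366). Hdac9, a class IIa deacetylase that works with Mef2 factors, had 7.22, 7.27 and 7.38 against 7.61, 7.79 and 7.52. Its difference of 0.35 (SE 0.10, adjusted p = 0.297) was 0.37 from lateral ventricle array 2 alone, so like Tet1 it was as large against that array as against the others. Hdac2 was highest in lateral ventricle array 2 (11.70, against 11.27 to 11.57 in the other arrays) and differed by 0.10 (95% interval -0.19 to 0.39).

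The 5 histone demethylases among the members had negative differences, with a median of -0.29, and 0 of the 5 passed. Of 13 other measured genes of this class 3 were positive and 10 negative, with a median of -0.09. Kdm5b, which removes H3K4 methylation, had 9.45, 8.62 and 9.08 in the lateral and 9.001, 8.44 and 8.76 in the third ventricle arrays, a difference of -0.32 (SE 0.22, adjusted p = 0.607). Kdm4a, which acts on H3K9 and H3K36, had 7.01, 6.58 and 7.19 against 6.78, 6.38 and 6.67, also at -0.32 (SE 0.18, adjusted p = 0.499). Kdm6b, which removes H3K27 methylation, had 6.17, 5.97 and 6.44 against 5.84, 6.04 and 5.83, a difference of -0.29 (SE 0.13, adjusted p = 0.419). In these 3 genes lateral ventricle array 2 was the lowest lateral array and lay among the values of the third ventricle. Leaving out lateral ventricle array 1 gave a list median of -0.12, and leaving out array 2 gave -0.40. The H3K4 demethylase Kdm1a, also called LSD1, and the PRC1-associated Kdm2b differed by -0.07 (95% interval -0.30 to 0.17) and -0.11 (-0.33 to 0.11). Kdm1a had 9.44, 9.52 and 9.33 against 9.49, 9.28 and 9.32, with overlapping groups.

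Of the H3K9 methyltransferases, only Suv39h2, an enzyme of constitutive heterochromatin, differed by more than 0.2. It had 6.52, 7.54 and 6.75 in the lateral and 7.46, 7.59 and 7.68 in the third ventricle arrays, a difference of 0.64 (SE 0.24, adjusted p = 0.351). Lateral ventricle array 2 again lay at the third ventricle level, and without it the gene passed (0.94, adjusted p = 0.00237). Setdb1, which silences retroelements, was at 8.05 to 8.06 in the third ventricle arrays and at 7.85, 8.19 and 7.83 in the lateral ones, a difference of 0.10 (95% interval -0.17 to 0.37). The euchromatic enzymes Ehmt1 and Ehmt2 differed by -0.14 (-0.40 to 0.11) and -0.0019 (-0.25 to 0.25).

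The general coactivator acetyltransferases varied little over the arrays. Crebbp lay between 9.12 and 9.24 and Ep300 between 8.41 and 8.64, and both differed by -0.02, with 95% intervals of -0.22 to 0.18 and -0.24 to 0.21. Of the GCN5 family, Kat2a had 6.33, 7.29 and 6.995 in the lateral and 7.03, 7.14 and 7.12 in the third ventricle arrays. Its difference of 0.22 (-0.28 to 0.72) came from the low value of lateral ventricle array 1 and was -0.05 without that array. Kat2b, also called PCAF, differed by -0.03 (-0.39 to 0.32).

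Chd7, the remodeller mutated in CHARGE syndrome and a regulator of neural progenitors, lay lower in all arrays of the third ventricle, by a small margin to lateral ventricle array 3. It had 10.79, 11.01 and 10.48 in the lateral and 10.43, 10.32 and 10.38 in the third ventricle arrays, a 1.30-fold higher lateral signal. The log2 difference was -0.38 (SE 0.14, adjusted p = 0.347), and here lateral ventricle array 2 was the array farthest from the third ventricle, at -0.64 from it alone. Without that array the difference was -0.26 (adjusted p = 0.268). The array carries 30 single-gene probe sets for Chd7, and 29 of them had a negative difference, with a median of -0.24 and a range of -0.43 to 0.15. In 5 of the 30 the groups did not overlap, beside 17.0% of all genes (9.24% with the third ventricle below). The lowest adjusted p among the 30 was 0.353. As for Tet1, these probe sets share the same RNA and are not separate samples. Chd4, the NuRD ATPase, had 9.65, 9.78 and 9.51 against 9.87, 9.55 and 9.63. It differed by 0.04 (95% interval -0.24 to 0.31) and turned in sign without single arrays. Chd8, a relative linked to Wnt signalling, differed by -0.08 (-0.29 to 0.13).

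**Figure D4:**
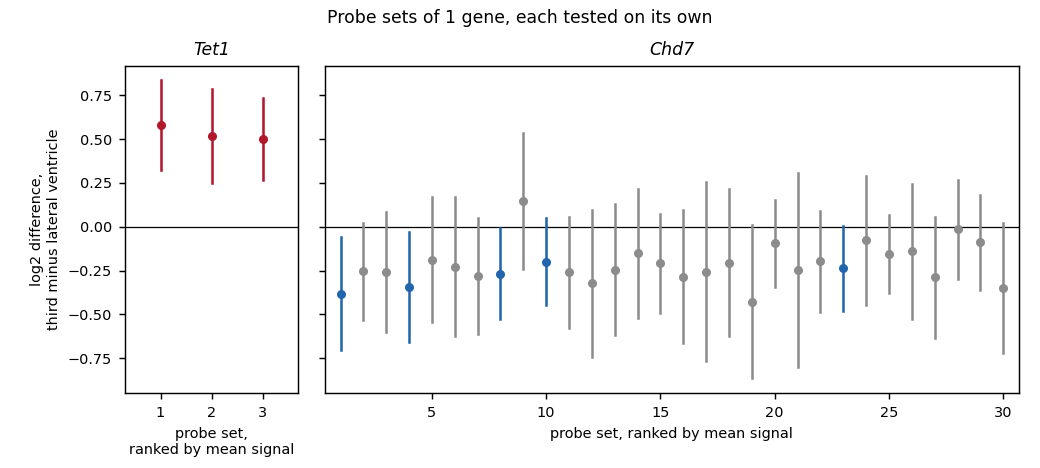
Log2 difference between the third ventricle and lateral ventricle cultures with its 95% interval (y axis) for the 3 probe sets of Tet1 and the 30 of Chd7, ordered by mean signal (x axis). Red marks probe sets with all arrays of the third ventricle above the lateral ones, blue those with all below, grey those with overlap. All of Tet1 lie at 0.50 to 0.58, and 29 of the 30 of Chd7 lie below 0.

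Without lateral ventricle array 2, 10 of the 50 members passed (20.0%, against 8.25% of all genes). The 8 higher ones were Dnmt1, Uhrf1, Tet1, Ezh2, Eed, Suz12, Hdac1 and Suv39h2, with a background of 4.37% of all genes, and the 2 lower ones were Cbx8 and Smarca2, with a background of 3.88%. These shares were not matched for signal, since 96% of the members but 55.3% of all genes lay above the gauge in every array. In 9 of the 10 array 2 lay nearer the third ventricle mean than the mean of the other lateral arrays, as it did in 81.7% of the 1644 genes called in that fit. In these 9, leaving out array 2 widened the difference, and calls over all genes rose from 46 to 1644. The adjusted p values of that fit, here and above, therefore describe these arrays and are no support for a difference between the regions. Array 2 exceeded the mean of lateral ventricle arrays 1 and 3 by more than 0.3 in 14 members (28%, against 13.7% of all genes) and lay more than 0.3 below it in 7 (14%, against 11.7%). Smarca4, Smarcc1, Actl6a, Hdac2, Setdb1, Kat2a and Chd7 were among the 14 besides those already called, and Tet2, Pcgf2, Kdm4a, Kdm5b and Kdm6b among the 7. The range within the lateral group was larger than within the third ventricle group in 35 members (70%, against 66.6% of all genes). The 23 proliferation genes also had array 2 nearer the third ventricle, as did the members that passed as higher without it, Tet1 aside, and the part of proliferation in these differences was not tested. In bulk RNA, a smaller share of cells with a transcript and less of it in each cell cannot be told apart.

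A longer list of partner genes from the same complexes gave the same count. Of 165 genes, 156 were measured and 0 passed with all arrays. At an unadjusted p below 0.05, 8 of the 156 were higher and 8 lower, beside 6.21% and 6.43% of all genes. In the fit that leaves out lateral ventricle array 2, 12 of the 156 passed with a positive and 5 with a negative difference, beside 4.37% and 3.88% of all genes. The lowest p belonged to Smarca1, the ISWI ATPase SNF2L, with 7.17, 6.85 and 7.06 in the lateral and 6.50, 6.06 and 6.29 in the third ventricle arrays, a difference of -0.75 (SE 0.14, adjusted p = 0.106). It was followed by Asxl3, a partner of the H2A deubiquitinase Bap1, at -0.65 (adjusted p = 0.168) and the acetyltransferase Kat5, or Tip60, at -0.39 (adjusted p = 0.190). In each of these 3 genes the third ventricle arrays lay wholly below the lateral ones. Hells and Chaf1b, named here after their values were seen, had the largest positive differences of the list. Hells, a remodeller needed for DNA methylation, had 6.01, 8.84 and 7.18 in the lateral and 8.73, 9.01 and 8.83 in the third ventricle arrays. Chaf1b, a subunit of the chaperone that loads histones behind the fork, had 4.08, 6.44 and 4.66 against 6.25, 6.49 and 6.44, and lateral ventricle arrays 1 and 3 were under the gauge. Both again set lateral ventricle arrays 1 and 3 apart from the other 4 arrays.

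E2F factors drive genes of DNA synthesis, so the promoters of the members were searched for 4 E2F-type sites of 8 bases, TTTGGCGC, TTTCCCGC, TTTGGCGG and TTTCCCGG, on both strands. Windows ran from 250 bases before to 50 after each start in RefSeq (GRCm38.p6), and 44 of the 50 measured members had one. A site was found in 6 of the 44 (13.6%), against 5.10% of the 15614 measured genes with a window. These sets, too, were not matched for how many genes lay above the gauge, and the shares were not tested. Counted by window, the share was 10.3% for the members, 4.45% for the measured genes and 3.32% for all windows of that length. Of these genes, Dnmt1, Ezh2 and Suz12 passed without lateral ventricle array 2, while Arid1a, Chd4 and Smarcd1 did not. A link between a site and a call was not tested. The 6 sites are printed with 11 to 13 bases before them, on the strand of the gene and with the site in capitals.
Dnmt1 (chr9:20952574-20952603, minus strand): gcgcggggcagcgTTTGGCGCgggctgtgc
Ezh2 (chr6:47595009-47595038, minus strand): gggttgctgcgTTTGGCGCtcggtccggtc
Suz12 (chr11:79992876-79992905, plus strand): cgacccctcatTTTCCCGCgaattcagttc
Arid1a (chr4:133754022-133754051, minus strand): tccctccctccTTTCCCGCcccctccccct
Chd4 (chr6:125096113-125096142, plus strand): gtgcggtgggaTTTCCCGGccggtgtttcg
Smarcd1 (chr15:99702145-99702174, plus strand): gtcagcacgccTTTCCCGCtagtcgccccc

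Dnmt1 and Ezh2 held the same 8 bases, TTTGGCGC, which began 34 and 4 bases into the transcribed part, counting the start as 1. The Dnmt1 site was in 1 of its 3 windows, and the sites of Arid1a and Chd4 were each in 1 of 2 windows. Each of the 6 genes had 1 match, so no matches overlapped. The sites of Suz12, Smarcd1, Arid1a and Chd4 lay 219, 131, 55 and 39 bases before the start. Uhrf1, Eed, Suv39h2 and Tet1 had windows without these letters, which says nothing of other forms of the site, and Hdac1 had no window in the table. A match of letters is a description and does not show that a factor binds there.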

How the data were processed

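Total RNA was amplified with the NuGEN WT-Ovation Pico system from 500 pg to 50 ng, per the labels' protocols, which can add spread between arrays. The authors deposited log2 values, 1 for each probe set and array. The submitters' processing notes name RMA and Affymetrix Expression Console 1.1. A genome build and other settings are not given in these sources. RMA compresses dim probe sets toward the background, so their differences are understated.

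Of 35556 probe sets, 21789 had 1 gene symbol, 1621 had several and 12146 were unnamed here. Using limma 3.58.1 (lmFit, eBayes; R 4.3.3), genes were compared as the third ventricle minus the lateral ventricle, without a filter, and p-values were adjusted by Benjamini-Hochberg over all genes (threshold 0.05). The number of arrays limits the precision, and an exact permutation of 3 against 3 cannot go below p = 0.1. The labels call the arrays biological replicates but do not link their numbers to animals. The p-values therefore reflect only how far these cultures differ from each other, a spread that can include technical steps. The steps were tested on simulated data in which no array stood apart as lateral ventricle array 2 does. That test therefore says nothing of how this array affects the calls. The members and lists were chosen with earlier results of these data known. Every member may be named. Values in every array, or the range where they varied little, are given for members that passed with all arrays or without 1, for those whose groups did not overlap, and for those with the highest 2 means or the largest difference of a complex. Those of Smarca4, Actl6a and Kdm6b were added after their values were seen. Of partner genes the 3 with the lowest p are named. Promoters were matched by symbol. Alternatives covered probe set choice, a filter, normalization, prior, array weights, a replicate block and each array left out. Separate fits of each probe set and differences from lateral ventricle array 2 alone were added after seeing the data.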

Additional observations from a re-analysis of the deposited data

How the results depend on the processing

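With all arrays, 46 genes passed. The count was 158 with array weights, and 4 to 1644 when 1 array was left out: 25, 1644 and 20 without lateral ventricle arrays 1, 2 and 3, and 7, 4 and 4 without those of the third ventricle. With the replicate block it was 57. Of the members 0 passed with all arrays and in 13 of 14 fits, and 0 to 10 when 1 array was left out (10 without lateral ventricle array 2). Partner genes gave 0, 1 with array weights and 0 to 17 when 1 array was left out. With the replicate block 0 members passed. The same-numbered arrays' deviations correlated at 0.24, 0.111 and 0.0679, against -0.145 to 0.0398 for arrays of different numbers. The labels do not link the numbers to animals, so the main fit took no pairs. Whether the numbers are pairs was not tested.

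The members' median difference of 0.01 lay between -0.03 and 0.02 under the alternatives. Averaging all probe sets turned the Tet median from -0.05 to 0.08 and lowered the PRC2 median from 0.33 to 0.13, since the second probe sets of Tet3 and Eed then entered. Of 377 values for 29 named members under 13 alternatives, 8 turned in sign in 5 members. With 1 array left out, Smarcc1 ran from -0.0258 to 0.259 (-0.0255 without lateral ventricle array 1, -0.0258 without array 3), Kat2a from -0.0482 (without lateral ventricle array 1) to 0.431, Crebbp from -0.0545 to 0.0070 (without lateral ventricle array 2), Ep300 from -0.0916 to 0.0224 (0.0146 and 0.0224 without arrays 2 and 3 of the third ventricle) and Chd4 from -0.0544 to 0.106 (-0.0312 without lateral ventricle array 3, -0.0544 without array 1 of the third ventricle). With 3 arrays a region, the intervals of most members include 0, which does not show that their levels are equal.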
